A study of Homo sapiens with 4 samples.

Results

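The genes described here are PML and RARA, the genes that are fused in acute promyelocytic leukemia, together with the other retinoic acid receptors RARB and RARG, the retinoid X receptors RXRA, RXRB and RXRG, the corepressor gene NCOR1 and the PML partner gene SP100. They were chosen by name, through the gene identifiers of the table. No cut on their values was used, though earlier results of these data were known. All 9 genes were present among the 58735 genes of the table, and 7 of them had a mean of at least 0.5 FPKM (fragments scaled by exon length and by library) over the 4 libraries and were among the 16668 genes tested.

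RNA was sequenced from cells labelled NB4, a human line established from acute promyelocytic leukemia. The control group held 2 libraries from cells listed as untreated, and the GNE-987-treated group held 2 libraries from cells given GNE-987, by the study's figure legend at 25 nM for 24 h. GNE-987 is a bifunctional degrader that joins BET bromodomain proteins to a ubiquitin ligase. Whether the control cells received a vehicle is not given in the sources used here. Nothing in the labels says that the 2 libraries of a group came from separate cultures, so the p-values measure the spread between these libraries, which may be technical. One cell line, one dose and one time were sampled.

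Retinoic acid receptors (RARs) are transcription factors that bind DNA as pairs with retinoid X receptors (RXRs). Without ligand the pair recruits corepressors of the NCOR family and histone deacetylases, and retinoic acid exchanges these for coactivators. PML protein organises nuclear bodies, in which SP100 and DAXX also gather, and in acute promyelocytic leukemia its gene is joined to RARA by a translocation between chromosomes 15 and 17. The fusion protein represses retinoic acid targets, and pharmacological retinoic acid and arsenic act on it.

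A value per gene cannot separate the fusion transcript from the transcripts of the normal PML and RARA alleles, and the presence of the fusion was not tested. In the control libraries the 8 promyelocyte and neutrophil granule markers summed to 3.33 and 3.87 FPKM, with CTSG and ELANE at 0 in both libraries and MPO at 0.0246 and 0 FPKM. The 9 erythroid markers summed to 432 and 408 FPKM there, with GATA1 at 124 and 122 FPKM. CTSG, ELANE and MPO were thus at or near 0 in control cells that carry the label. The other granule markers were not all so low. AZU1 was at 2.07 and 2.10 FPKM, CD33 at 0.836 and 0.915 and PRTN3 at 0.341 and 0.710. CEBPE was at 0.0559 and 0.116 FPKM and MS4A3 at 0 and 0.0216. In the GNE-987 libraries the granule markers summed to 28.9 and 27.1 FPKM, the 5 monocyte markers to 57.7 and 60.9 FPKM against 2.12 and 1.71 FPKM in the controls, and the erythroid markers to 782 and 668 FPKM. The 4 B cell markers summed to 0.936 and 0.950 FPKM in the controls and 23.7 and 22.1 FPKM after treatment, the 4 T cell markers to 18.1 and 17.0 against 21.2 and 21.8 FPKM, and the 5 megakaryocyte markers to 1.39 and 1.41 against 6.33 and 7.76 FPKM. The part of these shifts in the values of the retinoid genes was not tested, and in bulk RNA a change in the share of a cell type and a change of RNA per cell cannot be told apart.

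Low FPKM values move in whole steps of 1 read, which gave the depth of each library. The controls held 19420418 and 19209276 reads on genes and the GNE-987 libraries 12339146 and 12843384. Of the tested genes, 33.6% were called higher and 24.9% lower with GNE-987 (limma, unadjusted P under 0.05 and fold change past 2), which is 5602 and 4148 genes. The split depends on scaling. It was 4184 higher and 6641 lower with the libraries scaled to their recovered reads, 4235 and 5464 with quantile normalization, 4316 and 6752 with limma-voom on recovered reads, and 3031 and 9738 with scaling to GAPDH, with a median log2 fold change over all tested genes of -0.56, -0.24, -0.57 and -1.59, against 0.17 with the deposited scaling.

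RARA rose, though by less than the 2-fold limit with GAPDH scaling, RARG, RXRA, RXRB, NCOR1 and SP100 fell, PML was lower by a little less than the 2-fold limit, and RARB and RXRG were close to 0 in every library. Thus 1 of the 7 tested genes was called higher and 5 were called lower, beside 33.6% and 24.9% over all tested genes. RARG and SP100 reached the filter through their control values alone and so had to differ, and nothing is read from their part in these counts. Of the other 5 tested genes, which were above 0.5 FPKM in both groups, 1 was called higher and 3 lower. The median log2 fold change was -1.92 over the 7 genes and -1.55 over these 5, beside 0.17 over all tested genes and -0.29 over the 10996 protein-coding ones. The FPKM ranges of the control and GNE-987 libraries did not overlap for any of the 9 genes. The share of all tested genes with separate ranges was not computed, so nothing is read from this. RARB and RXRG rest on a few reads each.

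**Figure D1:**
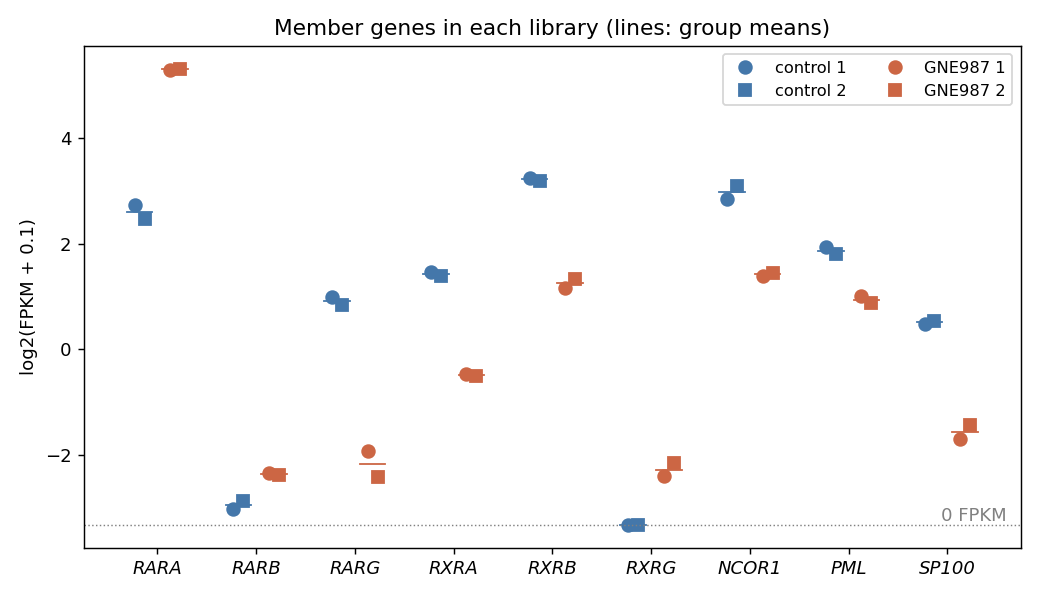
FPKM of each of the 9 genes in each library, drawn as log2(FPKM + 0.1), with control libraries in blue, GNE-987 libraries in orange and short lines at the group means of these log2 values; the dotted line is 0 FPKM. RARA stands at 38.9 and 39.5 FPKM in the GNE-987 libraries against 6.56 and 5.43 in the controls, while RARG, RXRA, RXRB, NCOR1, SP100 and PML lie lower in both GNE-987 libraries.

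RARA (ENSG00000131759, chr17:40309180-40357643, plus strand, hg38) encodes RARα, the receptor partner of the leukemia fusion. Its values were 6.56 and 5.43 FPKM in the controls and 38.9 and 39.5 FPKM after treatment. Both treated libraries stood far above both controls, and they differed from each other by less than the controls did. The group means were 5.996 ± 0.804 and 39.2 ± 0.428 FPKM (SD, n = 2), 6.54-fold higher with GNE-987. The log2 fold change was 2.70 ± 0.109 (SE), with a limma Benjamini-Hochberg adjusted p of 0.000248.

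The rise was also present in the reads themselves, although the GNE-987 libraries were the shallower pair. RARA had 715 and 568 recovered reads in the controls and 1539 and 1650 in the GNE-987 libraries. As CPM, reads scaled to the total on genes of each library, this was 36.8 and 29.6 against 125 and 128, a ratio of group means of 3.81. The log2 fold change was 1.93 with the libraries scaled to their recovered reads and 0.86 with scaling to GAPDH, which is under the 2-fold limit, and RARA was then not called. With the median of the tested genes subtracted, its log2 fold change was 2.52 with the deposited scaling, 2.49 with total reads and 2.45 with GAPDH.

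**Figure D2:**
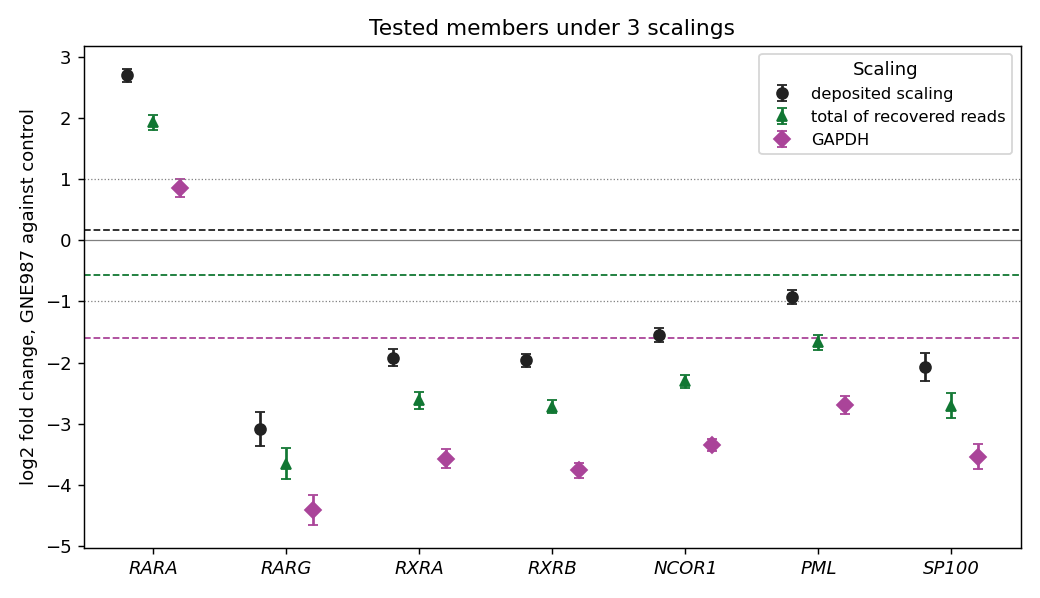
Log2 fold change (GNE-987 over control) of the 7 tested genes, with SE bars, under the deposited scaling, scaling to recovered reads and scaling to GAPDH; dashed lines give the median of all tested genes under each, and dotted lines the 2-fold limits. RARA stays above 0 under these 3 scalings and reaches 0.86 with GAPDH, while PML moves from -0.93 to -2.70.

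Genes on the opposite strand overlap RARA. The long noncoding RNA gene RARA-AS1 (chr17:40340867-40343136) shares 556 of the 4743 exon bases of RARA, and ENSG00000278918, a provisional gene model, shares 291. RARA-AS1 was at 1.14 and 1.14 FPKM in the controls and at 28.9 and 30.1 FPKM in the GNE-987 libraries, with a log2 fold change of 4.58 ± 0.0677 (SE) and a limma Benjamini-Hochberg adjusted p of 9.61e-05. ENSG00000278918 was at 0.157 and 0.236 against 3.70 and 3.32 FPKM and was also called higher.

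The TruSeq kit named in the labels does not mark the strand in its standard form, so reads in the shared bases cannot be assigned to one strand. Of the RARA exon bases, 3896 (82.1%) lie outside every other listed gene. When every recovered read of both opposite-strand genes was taken off RARA, an alternative chosen after the values were seen, 659 and 510 reads were left in the controls and 1029 and 1101 in the GNE-987 libraries. RARA then stood at 6.05 and 4.87 against 26.0 and 26.4 FPKM, 4.80-fold higher, with a log2 fold change of 2.25, and it was still called.

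The genes that flank RARA were not called higher. CDC6 is a replication licensing gene that ends 4.52 kb before the RARA start on the same strand. It was at 19.9 and 19.1 FPKM in the controls and at 19.5 and 18.9 FPKM with GNE-987. Its log2 difference with the deposited scaling was -0.02 and was not called. In recovered reads CDC6 had 2550 and 2353 against 906 and 927, with the GNE-987 libraries the shallower pair. The connexin gene GJD3, 3.01 kb past the RARA end, fell, with a log2 fold change of -1.51, and its antisense gene GJD3-AS1 fell with -2.42.

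**Figure D3:**
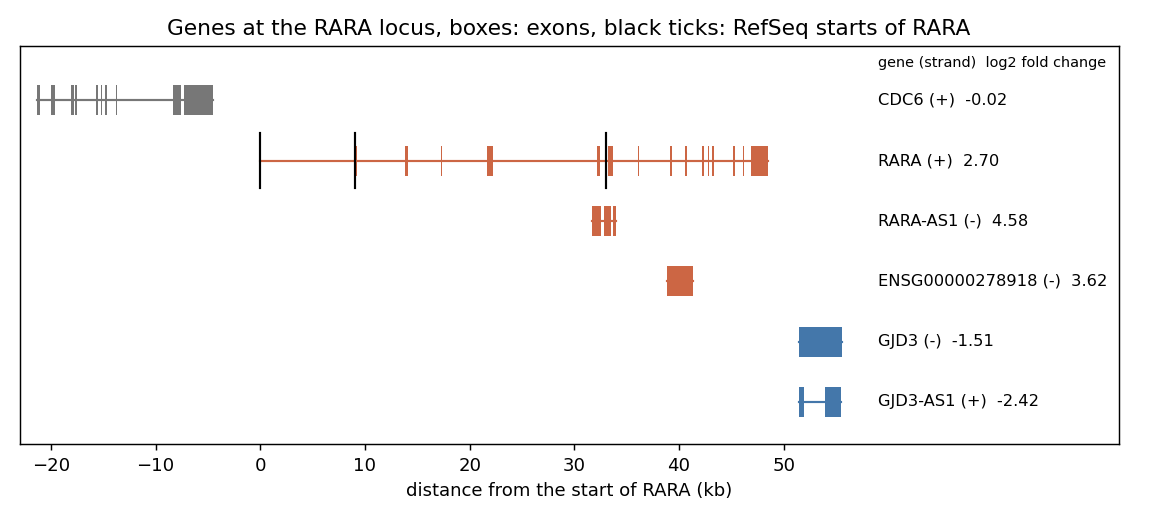
Exons of RARA, its overlapping opposite-strand genes and its neighbours, drawn as boxes by distance from the RARA start in kilobases, with the log2 fold change of each gene (orange called higher, blue lower, grey not called) and black ticks at RefSeq starts of RARA. RARA-AS1 lies across the middle of RARA and carries 4.58, RARA 2.70, CDC6 before the start -0.02 and GJD3 past the end -1.51.

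RARG (ENSG00000172819, chr12:53210567-53232980, minus strand) encodes RARγ, a receptor known from skin and from blood stem cells. It stood at 1.89 and 1.69 FPKM in the controls and at 0.163 and 0.0884 FPKM in the GNE-987 libraries. These rest on 223 and 192 recovered reads against 7 and 4, so the treated level is known only roughly. RARG reached the filter through its control values alone, so its test is given as a description only. The mean was 14.2-fold lower with GNE-987, and the log2 fold change was -3.08 ± 0.284 (SE), with a limma Benjamini-Hochberg adjusted p of 0.00139. The value ranged from -1.31 with a pseudocount of 1 over -3.65 with total reads and -4.41 with GAPDH to -4.55 with limma-voom, and RARG was called lower in each.

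RARB (ENSG00000077092, chr3:24687887-25597932, plus strand) encodes RARβ, whose gene is itself a textbook target of retinoic acid. It was at 0.0235 and 0.0367 FPKM in the controls and at 0.0971 and 0.0919 FPKM after treatment, below the filter, and was not tested. The recovered reads of so low a gene are fixed only up to a whole multiple. They could be 2 and 3 against 3 and 3, or a multiple of these, and the higher FPKM of the treated libraries comes with the larger value of 1 read there. No fold is given for this reason.

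The promoter of RARB is shown because it carries the retinoic acid response element for which the gene is known, and that of CYP26A1 because this retinoic acid hydroxylase gene carries one too. Each is the run of 120 bases that ends just before a RefSeq start (GRCh38.p14, plus strand), at chr3:25428143-25428262 for RARB and at chr10:93073773-93073892 for CYP26A1. The capitals mark a DR5 element, 2 repeats with 5 bases between them, each repeat being AGGTCA, in which the first base may also be G and the third may also be T.
RARB: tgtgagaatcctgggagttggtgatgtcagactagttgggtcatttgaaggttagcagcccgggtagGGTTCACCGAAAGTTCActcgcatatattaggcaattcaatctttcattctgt
CYP26A1: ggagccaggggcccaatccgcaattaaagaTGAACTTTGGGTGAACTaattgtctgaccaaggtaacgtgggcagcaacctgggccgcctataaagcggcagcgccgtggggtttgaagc
In RARB the element lies on the gene's strand from -53 to -37, and in CYP26A1 on the opposite strand from -90 to -74. Over both strands, a DR5 element was found in 31 of 35116 promoter windows of 300 bases (0.0883%), and among the 17 windows of 8 of the 9 genes (RefSeq gave no window for PML here) only in this RARB window. Neither DR1 nor DR2, the same repeats with 1 or 2 bases between them, was found in those 17 windows, against 0.131% and 0.0399% of all windows. The gamma-activated letters TTCNNNGAA were found in 3 of them, against 7.66% of all windows, and one of these matches overlaps the RARB element. The interferon element (GAAA, 2 further bases, GAAA) was found in 1, that of RARG, against 3.57% of all windows. A match describes letters in a window and not a bound site.

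RXRA (ENSG00000186350, chr9:134317098-134440585, plus strand) encodes RXRα, a shared partner of many nuclear receptors. It was at 2.67 and 2.52 FPKM in the controls and at 0.626 and 0.603 FPKM after treatment. The treated libraries agreed closely and lay well below the controls, with 58 and 59 recovered reads against 682 and 619. RXRA fell 4.23-fold, with a log2 fold change of -1.92 ± 0.139 (SE) and a limma Benjamini-Hochberg adjusted p of 0.000777. The log2 fold change was -1.16 with a pseudocount of 1, -2.62 with total reads, -2.85 with limma-voom, -3.40 with quantile normalization and -3.57 with GAPDH, and RXRA was called lower in each.

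RXRB (ENSG00000204231, chr6:33193588-33200665, minus strand), which encodes RXRβ, had the highest mean of the 9 genes in the controls. It was at 9.40 and 8.97 FPKM there and at 2.14 and 2.43 FPKM in the GNE-987 libraries, again with no overlap between groups. It fell 4.02-fold, with a log2 fold change of -1.96 ± 0.0990 (SE) and a limma Benjamini-Hochberg adjusted p of 0.000368. It was called lower also with total reads (-2.72), limma-voom (-2.78) and GAPDH (-3.76). The zinc transporter gene SLC39A7 starts inside RXRB on the opposite strand and shares 361 of its 3897 exon bases. SLC39A7 was at 49.5 and 49.1 FPKM in the controls and at 13.7 and 14.8 FPKM with GNE-987, a log2 fold change of -1.79, so both genes fell, and their reads in the shared bases cannot be told apart. How far the level of RXRB, its place among the 9 genes and its share of the RXR sum rest on these bases was not tested.

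RXRG (ENSG00000143171, chr1:165400922-165445355, minus strand) encodes RXRγ, the form known from muscle and brain. It was listed at 0 in both controls and at 0.0887 and 0.126 FPKM after treatment, or 2 and 3 reads at the annotated exon length. It was below the filter, was not tested, and no fold is given since both groups lie at or under a floor of 3 reads.

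Summed over the family, the RARs and RXRs moved in opposite directions. The 3 RAR genes summed to 8.48 and 7.16 FPKM in the controls and to 39.2 and 39.7 FPKM with GNE-987, while the 3 RXR genes summed to 12.1 and 11.5 against 2.85 and 3.16 FPKM. The RAR to RXR ratio within a library, which does not depend on how libraries are scaled, was 0.702 and 0.623 in the controls and 13.7 and 12.6 with GNE-987, a ratio of means of 19.9. The sum keeps RARA reads that the opposite-strand genes may share. With those taken off, RARA was at 6.05 and 4.87 against 26.0 and 26.4 FPKM, which would make the rise of this ratio smaller. The same holds for the other ratios with RARA given below. With 2 libraries against 2, an exact permutation test cannot give a two-sided p under 0.333, so no test is given for this ratio. RARA was 77.4% and 75.8% of the RAR sum in the controls and 99.3% and 99.5% of it with GNE-987. RXRB made up 77.9% and 78.0% of the RXR sum in the controls and 74.9% and 76.9% of it with GNE-987, so the make-up of the RXR sum moved little.

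**Figure D4:**
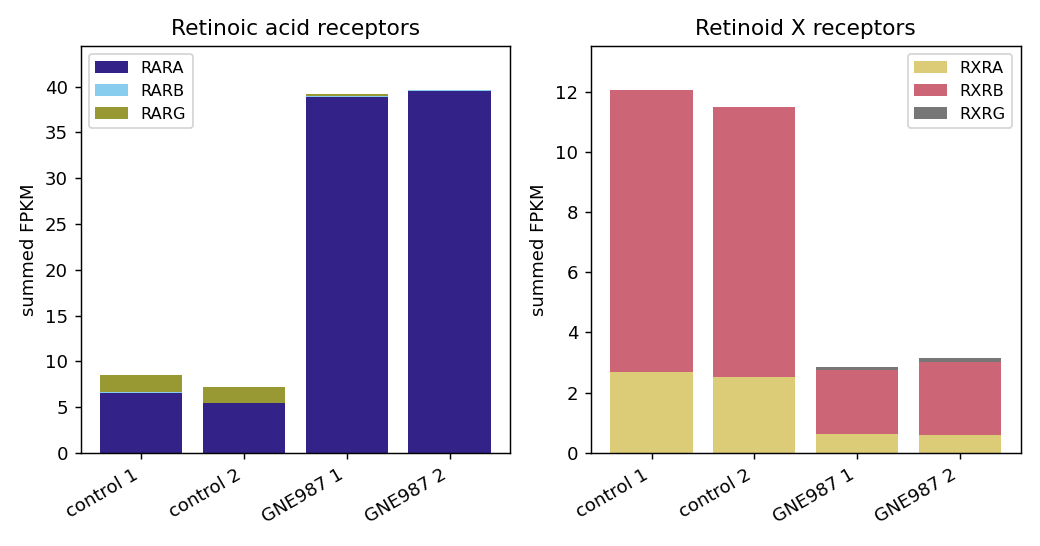
Stacked FPKM of the 3 RAR genes and of the 3 RXR genes in each library, with the axis from 0. The RAR sum goes from 8.48 and 7.16 FPKM to 39.2 and 39.7 and is nearly all RARA, while the RXR sum goes from 12.1 and 11.5 FPKM to 2.85 and 3.16 and is mostly RXRB throughout.

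NCOR1 (ENSG00000141027, chr17:16029065-16218185, minus strand) encodes the corepressor that unliganded RARs bind. Its values were 7.11 and 8.42 FPKM in the controls and 2.52 and 2.63 FPKM after treatment. The controls were further apart than the treated libraries, and all treated values lay below them. NCOR1 fell 3.02-fold, with a log2 fold change of -1.55 ± 0.115 (SE) and a limma Benjamini-Hochberg adjusted p of 0.000824. With total reads it was -2.31, with limma-voom -2.36 and with GAPDH -3.35, called lower in each. The RARA to NCOR1 ratio within a library was 0.923 and 0.645 in the controls and 15.5 and 15.0 with GNE-987. TTC19 and PIGL overlap 340 and 321 of the NCOR1 exon bases on the opposite strand. Their log2 differences with the deposited scaling, -0.56 and 0.30, were not called.

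A list of nuclear receptor corepressors and coactivators holds the partners of NCOR1. All 12 of its genes were tested, with a median log2 fold change of -0.43, beside 0.17 over all tested genes. Of the 12, 1 was called higher and 5 lower, beside 33.6% and 24.9% over all tested genes. HDAC3, the deacetylase of the NCOR complexes, was at 21.3 and 21.4 against 21.2 and 22.1 FPKM, a log2 difference of 0.02 ± 0.0492 (SE). This level value holds for the deposited scaling. The recovered reads of HDAC3 were 2266 and 2194 against 820 and 905, with the GNE-987 libraries the shallower pair. TBL1X, another subunit of the complexes, fell from 7.87 and 8.18 to 1.47 and 1.45 FPKM. The coactivator NCOA1 fell with a log2 fold change of -1.37. NCOA4, a coactivator better known as the receptor for ferritin in autophagy, rose from 37.0 and 38.9 to 114 and 109 FPKM, but was not called with quantile normalization, total-read scaling or limma-voom on recovered reads, and its log2 difference turned to -0.30 with GAPDH.

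PML (ENSG00000140464, chr15:73994673-74047827, plus strand) was at 3.70 and 3.39 FPKM in the controls and at 1.90 and 1.74 FPKM in the GNE-987 libraries. Both treated libraries lay below both controls. The mean of 3.54 ± 0.224 against 1.82 ± 0.115 FPKM (SD, n = 2) was 1.95-fold lower, with a log2 difference of -0.93 ± 0.114 (SE) and a limma Benjamini-Hochberg adjusted p of 0.00304, so it missed the fold limit and not the p limit. It was called lower with quantile normalization (-1.25), total reads (-1.67), limma-voom (-1.74) and GAPDH (-2.70). In recovered reads it was 1079 and 948 against 201 and 194. STOML1, which starts 50 bases before PML on the opposite strand, had a log2 difference of -0.09 with the deposited scaling and was not called. The RARA to PML ratio was 1.77 and 1.60 in the controls and 20.5 and 22.8 with GNE-987.

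SP100 (ENSG00000067066, chr2:230415942-230545606, plus strand), an interferon-inducible nuclear body component, was at 1.29 and 1.36 FPKM in the controls and at 0.209 and 0.269 FPKM after treatment. It rests on 375 and 379 reads against 22 and 30. Like RARG, it reached the filter through its control values alone, and its test is given as a description only. SP100 fell 5.54-fold, with a log2 fold change of -2.08 ± 0.229 (SE) and a limma Benjamini-Hochberg adjusted p of 0.00227. With a pseudocount of 1 the log2 difference was -0.91 and it was not called, while total reads gave -2.70, quantile normalization -3.22, limma-voom -3.23 and GAPDH -3.54. The PML to SP100 ratio was 2.87 and 2.49 in the controls and 9.11 and 6.45 with GNE-987.

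Of the 18 genes of a PML nuclear body list, 17 were tested, with a median log2 fold change of -0.77. Of the 17, 3 were called higher and 8 lower, beside 33.6% and 24.9% over all tested genes. DAXX, a histone chaperone held in the bodies, fell from 39.6 and 35.5 FPKM to 4.31 and 5.69 FPKM, with a log2 fold change of -2.89 ± 0.161 (SE). SP110, a relative of SP100, fell from 0.930 and 0.691 to 0.244 and 0.248 FPKM. The SUMO-targeted ubiquitin ligase gene RNF4 rose from 8.15 and 8.38 to 18.2 and 18.4 FPKM, but its log2 difference was 0.37 with total reads or limma-voom and -0.70 with GAPDH, and it was then not called. SP110 was above the filter in the controls alone, and it was not called with a pseudocount of 1 or without control replicate 1 (-1.19). ISG20, called higher, was above the filter in the GNE-987 libraries alone. Of the 15 genes above it in both groups, 2 were called higher and 7 lower, with a median of -0.77. The list thus held genes that rose and genes that fell. With GAPDH scaling, 1 of the 17 was called higher and 14 lower, beside 3031 and 9738 of all 16668 tested genes.

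PML and SP100 are known interferon targets. Of 23 interferon-stimulated genes, 9 were tested, with a median log2 fold change of 1.33. Of the 9 tested, 6 were called higher and 0 lower, beside 33.6% and 24.9% over all tested genes. IFI6 and RIGI reached the filter through the treated libraries alone, and of the other 7 genes 4 were called higher, with a median of 1.02. IFIH1, at 0.281 and 0.266 FPKM in the controls and 0.0937 and 0.0887 FPKM after treatment, was below the filter and not tested. IRF7 rose from 1.26 and 1.57 to 27.2 and 31.8 FPKM, IFI35 from 4.47 and 3.60 to 21.5 and 23.7 FPKM, and IRF1 from 0.657 and 0.655 to 1.60 and 2.02 FPKM. The count of 6 was 2 with quantile normalization or a pseudocount of 1, 3 with total reads or limma-voom and 1 with GAPDH. IRF1 was not called in any of these, and its log2 difference turned to -0.37 with GAPDH. Of all 16668 tested genes, 4235, 4744, 4184, 4316 and 3031 were called higher in these settings, in the order given.

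Of the 18 genes of retinoid transport and metabolism, 6 were tested, with a median log2 fold change of -0.13. Of the 6, 1 was called higher and 2 lower, beside 33.6% and 24.9% over all tested genes. CRABP2, which carries retinoic acid to the receptors, rose from 0.355 and 0.411 FPKM to 11.6 and 15.9 FPKM, with a log2 fold change of 4.83 ± 0.196 (SE). It reached the filter through the treated libraries alone. Of the other 5 tested genes 0 were called higher and 2 lower, with a median of -0.72. DHRS3, which reduces retinaldehyde, fell from 6.12 and 5.45 to 0.749 and 0.560 FPKM, and the retinol dehydrogenase gene RDH11 fell with a log2 fold change of -1.48. CYP26A1, whose promoter is shown above, was at 0.0438 and 0.0456 against 0.523 and 0.610 FPKM, which is 3 and 3 against 13 and 16 recovered reads, and was below the filter.

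Of 13 receptors that pair with RXR, 6 were tested, with a median of -0.90. Beside 33.6% called higher and 24.9% lower over all tested genes, 0 of the 6 were called higher and 3 lower. These were the liver X receptor genes NR1H2 and NR1H3, with log2 fold changes of -1.94 and -1.22, and the thyroid hormone receptor gene THRA, with -1.09. NR1H4, at 0 in both controls and at 1.02 and 0.812 FPKM after treatment, was below the filter and not tested. Without the filter, 2 of the 13 were called higher and 4 lower, beside 8757 and 5146 of all 32895 genes then tested. With a pseudocount of 1 only NR1H2 was called, and NR1H3 and THRA had log2 differences of -0.67 and -0.93. With GAPDH all 6 tested receptors were called lower, beside 9738 of all 16668 tested genes. Of 11 genes known as fusion partners of RARA besides PML, 10 were tested, with a median of -1.12. Of the 10, 1 was called higher and 5 lower, beside the same 33.6% and 24.9%. STAT5B fell from 35.8 and 36.7 to 11.4 and 10.9 FPKM, BCOR fell from 19.39 and 20.01 to 8.39 and 7.98 FPKM, and NUMA1 rose from 8.43 and 9.26 to 21.4 and 21.9 FPKM. NUMA1 was not called with total reads or limma-voom, and its log2 difference turned to -0.56 with GAPDH.

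**Figure D5:**
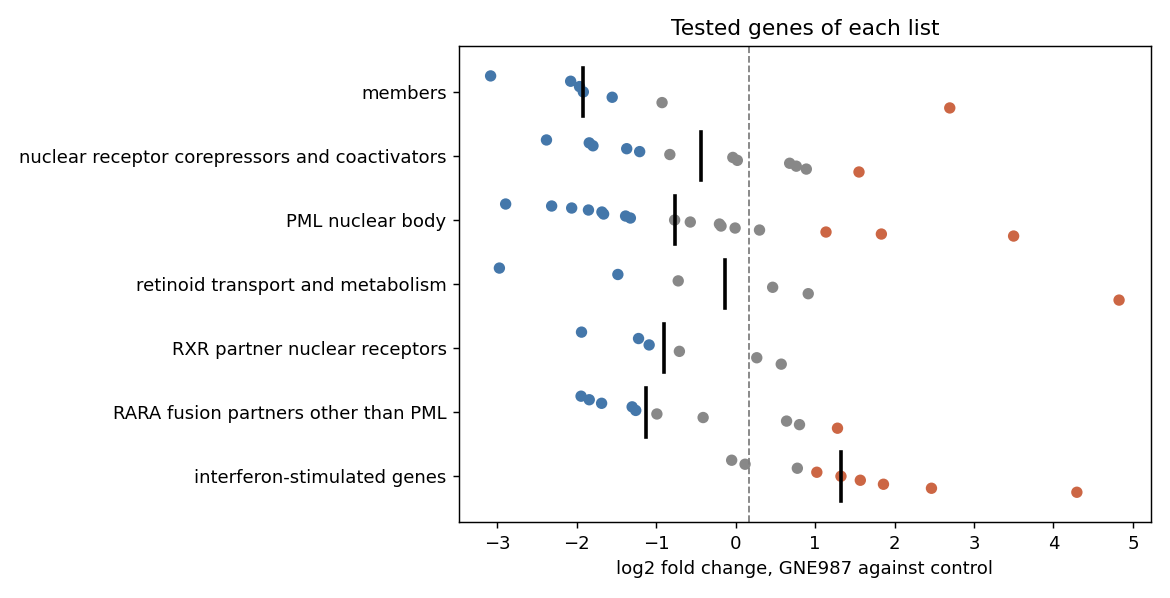
Log2 fold change (GNE-987 over control) of every tested gene of the 9 and of each related list, one point per gene (orange called higher, blue lower, grey not called), with list medians as black bars and the median of all tested genes as a dashed line. The medians run from -1.92 for the 7 tested of the 9 genes to 1.33 for the interferon-stimulated genes, beside 0.17 over all tested genes. Without the genes that passed the filter through 1 group alone, they are -1.55 and 1.02.

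Ranked by mean FPKM, the order in the controls was RXRB, NCOR1, RARA, PML, RXRA, RARG, SP100, RARB and RXRG, and no 2 neighbours in it had overlapping ranges. With GNE-987 the order was RARA, NCOR1, RXRB, PML, RXRA, SP100, RARG, RXRG and RARB, and only RARG with RXRG and RXRG with RARB overlapped. RARA thus went from the third place to the first, and the place of PML stayed the fourth. Reads of overlapping genes were not taken off for this order.

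Among 10989 other protein-coding genes, the profiles over the 4 libraries nearest to that of PML, by the distance between log2(FPKM + 0.1) values centred on their mean, were those of QPCTL (0.0263), SSR2 (0.0275) and ZNF768 (0.0303). Nearest to RARA were CELSR3 (0.0301), RASSF1 (0.0522) and PLAGL1 (0.0605). RASSF1 was at 11.9 and 10.3 FPKM in the controls and at 70.5 and 72.8 FPKM with GNE-987, close to the RARA pattern at a higher level. These profiles share their 4 libraries and 2 groups, and no test was made on the distances.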

How the data were processed

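RNA-seq libraries were made from total RNA with an Illumina TruSeq RNA kit. Per the labels and the study's methods, the authors mapped filtered reads with HISAT2 2.0.5 to hg38 (version and build from the submitters' processing notes) and deposited FPKM values per gene. The counting program, its strand setting and the annotation are not given in the sources used here. The authors called genes with DESeq2, which needs counts, so limma was used on the deposited FPKM here. The median-ratio factor of the deposited values is 1 in every library, so they already stand on that scaling.

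Genes whose mean was below 0.5 FPKM were left out. On log2(FPKM + 0.1), limma 3.58.1 in R 4.3.3 (linear model, trended empirical Bayes, no replicate block) was fitted to the remaining 16668 genes. A gene was called at an unadjusted P under 0.05 with more than a 2-fold difference, and adjusted p-values are Benjamini-Hochberg over all tested genes. Fold changes on this scale understate changes of low genes. Other tables were made with Python 3.11.15. Gene names and exons came from GENCODE release 44, which holds 58207 of the 58735 identifiers, and promoter windows from RefSeq.

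Reads per gene were read off the FPKM steps, taking a value within 0.01 of a whole number as whole. At the GENCODE exon length 53.0% of genes came out whole, and for most others a length was searched for, so read numbers of low genes are uncertain.

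The members and lists were chosen with earlier results of these data known. All 9 members were named, and from each list the 3 called genes of highest mean, genes overlapping or flanking a member, and CYP26A1, DHRS3, CRABP2, HDAC3, DAXX, SP110 and IRF1. A few genes that this rule also names are not reported here. Alternatives were other pseudocounts, filters and scalings, adjusted P, limma-voom on recovered reads, a replicate block and leaving out each library. The limma and read-recovery steps were tested on simulated data.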

Additional observations from a re-analysis of the deposited data

How the results depend on the processing

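No tested member changed direction under any of the 16 alternatives. One member was called higher under 14 of them, 2 without a filter on low values (RXRG, listed at 0 in both controls, was added) and 0 with GAPDH scaling. The count of 5 members called lower was 3 with a mean of at least 1 FPKM, where RARG and SP100 are no longer tested. Over all genes, 8757 were called higher without a filter and 3031 with GAPDH scaling, and 9738 were called lower with GAPDH scaling, 6641 with total reads and 6752 with limma-voom on recovered reads. Leaving out each library in turn gave 1 to 1 members higher, 5 to 5 lower, 4978 to 5374 genes higher and 3714 to 4101 lower. With 1 library left in a group, that library is assumed to vary like the others.

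Same-numbered libraries did not deviate together (correlation of deviations 0.00537). This cannot show whether they were prepared as pairs, which the labels do not say. A replicate block in the fit gave 5667 genes called higher and 4186 lower, and 1 and 5 members. Depth limits RARB, RXRG and the treated levels of RARG and SP100, which rest on 30 or fewer reads.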
